A study of Mus musculus with 10 samples.

Results

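The protein kinase C (PKC) isoforms are a family of serine/threonine kinases. The 8 genes described here, Prkca, Prkcb, Prkcd, Prkce, Prkch, Prkci, Prkcq and Prkcz, were taken by symbol from a matrix of 23230 features in 10 RNA-seq libraries of a mouse glioma model. They were chosen by family with their FPKM in the PT and AstroEGFR* libraries already known, Prkcb being among the genes with the largest rise in tumour-derived cells, so the comparison of tumour-derived cells with their astrocytes of origin is given for them as a description. FPKM, the unit of all levels below, is the number of sequenced fragments scaled to the length of the gene and to the size of the library.

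All cells came from C57BL/6 mice lacking Ink4a/Arf (p16/p19 KO), and all carried human EGFRvIII, a constitutively active EGFR delivered by a retroviral vector. AstroEGFR* were 3 independent batches of tumorigenic astrocytes grown in serum from cerebral cortices of pups at postnatal day 5. PT were 4 cultures of glioma propagating cells, obtained from primary tumours that such astrocytes formed in the brains of CD1 Nude mice and grown without serum on laminin with EGF and FGF2, so the passage through a tumour and the change of medium cannot be told apart. Astrocyte batch 1 gave rise to PT1 and PT4, batch 2 to PT2, and batch 3 to PT3. AstroEGFR* Zfp423 were the same 3 astrocyte batches infected with a further vector that overexpresses Zfp423, a zinc-finger transcription factor. All cultures were below passage 10, and each library was 1 culture.

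PKC enzymes fall into 3 classes by what switches them on. Conventional isoforms (Prkca, Prkcb) need calcium and diacylglycerol, the lipid that phospholipase C releases downstream of G protein-coupled and growth factor receptors. Calcium-independent isoforms (Prkcd, Prkce, Prkch, Prkcq) still need diacylglycerol, and atypical isoforms (Prkci, Prkcz) need neither and act through protein partners such as the Par polarity complex. In the brain, Prkcb is known mainly from neurons, Prkcd is also expressed by cells of the myeloid lineage, and Prkcq is best known from T cells.

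Several libraries stood apart before any comparison was made. Zfp423 itself was at 3.25 to 4.30 FPKM in AstroEGFR*, 0.641 to 2.78 in PT, and 15.7, 9.73 and 105 in AstroEGFR*1 Zfp423, AstroEGFR*2 Zfp423 and AstroEGFR*3 Zfp423. By quantitative PCR, the paper likewise found much stronger overexpression in AstroEGFR*3 than in the other batches. Cdkn2a, the gene of the Ink4a/Arf locus, was listed at 130 FPKM in PT3, 29.1 in AstroEGFR*3 and 3.96 to 9.01 in the other libraries, and a gene-level value cannot show whether the deleted exons are read. Small non-coding RNA and histone features held 35.4% to 54.8% of all FPKM in the AstroEGFR* Zfp423 libraries, 29.6% in AstroEGFR*2, 34.2% in PT2 and 0.315% to 6.08% in the rest, and leaving them out changed no call of a member. All 10 markers of microglia and macrophages were at 1 FPKM or more in AstroEGFR*1 Zfp423 and AstroEGFR*2 Zfp423, with sums of 1000 and 642 FPKM against 1.40 in AstroEGFR*3 Zfp423, 7.78 to 40.7 in AstroEGFR* and 2.59 to 37.0 in PT. Their defining markers Aif1 and Cx3cr1 were at 0.400 FPKM or less in the other 8 libraries, and the third, P2ry12, was at 0.0271 to 2.10 FPKM there, highest in PT4 and close to the 2.68 FPKM of AstroEGFR*2 Zfp423. The astrocyte markers summed to 59.4 FPKM in AstroEGFR*2 Zfp423, where Gfap was at 1.11 and Aqp4 at 0.0266, against 199 to 1048 in the other libraries. Among the AstroEGFR* libraries, AstroEGFR*2 was closest to every AstroEGFR* Zfp423 library by Spearman's rho over 12476 features. The rho was 0.856 for AstroEGFR*1 Zfp423, 0.795 for AstroEGFR*2 Zfp423 and 0.891 for AstroEGFR*3 Zfp423. The labelled parents of the first and the last, AstroEGFR*1 and AstroEGFR*3, were at 0.812 and 0.771. AstroEGFR*3 and PT3 were the shallowest libraries, at 0.0718 and 0.0928 of the depth of PT1 against 0.507 to 0.979 for the rest, so low FPKM values in those libraries rest on few reads.

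Promoter entries in RefSeq (GRCm38.p6) were found for 6 of the 8 genes, with none for Prkce and Prkch. The 250 bases before the annotated start are shown for Prkcb, Prkcd and Prkcq, the 3 members with the widest spread of levels over the libraries among all 8, each 5′ to 3′ on the strand of its gene, with every CpG in capitals.
Prkcb: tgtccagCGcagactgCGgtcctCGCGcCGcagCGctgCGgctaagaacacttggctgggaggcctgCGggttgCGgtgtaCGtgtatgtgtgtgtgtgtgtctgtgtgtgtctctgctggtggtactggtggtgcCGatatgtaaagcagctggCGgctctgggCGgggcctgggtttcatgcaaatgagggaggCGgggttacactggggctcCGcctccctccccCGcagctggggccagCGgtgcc
Prkcd: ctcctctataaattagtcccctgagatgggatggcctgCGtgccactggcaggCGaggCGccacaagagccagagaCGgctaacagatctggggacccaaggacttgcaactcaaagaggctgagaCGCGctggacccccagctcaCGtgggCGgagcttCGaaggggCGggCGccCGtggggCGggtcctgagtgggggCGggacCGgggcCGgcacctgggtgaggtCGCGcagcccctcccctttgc
Prkcq: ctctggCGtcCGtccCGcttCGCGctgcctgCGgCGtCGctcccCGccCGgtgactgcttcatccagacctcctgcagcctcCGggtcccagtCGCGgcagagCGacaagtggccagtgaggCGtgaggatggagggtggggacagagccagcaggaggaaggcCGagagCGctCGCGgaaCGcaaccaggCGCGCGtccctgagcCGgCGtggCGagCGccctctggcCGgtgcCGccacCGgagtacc
These windows lie at chr7:122288875-122289124 on the plus strand for Prkcb, chr14:30626209-30626458 on the minus strand for Prkcd (the first of its 2 annotated starts) and chr2:11172132-11172381 on the plus strand for Prkcq. The Prkcb window held 17 CpG, a number that 23.5% of all 32851 promoter entries reached. The Prkcd window held 18 CpG (21.7% of entries) and 4 matches to the GC box GGGCGG on either strand, a motif present in 32.7% of entries. The Prkcq window held 30 CpG (5.94% of entries), and that of Prkca, the most CpG-rich of the members, held 39 (1.56%). All 3 printed windows were thus richer in CpG than the median entry, which held 6, whether the gene was high or low in the libraries.

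The composition of the PKC family differed between astrocytes and PT. In AstroEGFR* the atypical class made up 55.8% ± 8.43 (SD, n = 3) of the summed FPKM of the 8 genes, and the conventional class 26.3% ± 5.36. In PT the conventional class made up 67.4% ± 2.17 (SD, n = 4) and the atypical class 21.3% ± 4.08. The summed level was 61.6 ± 9.11 FPKM in AstroEGFR* and 119 ± 20.9 in PT. The ranges of the groups did not overlap, but the family was chosen with the rise of Prkcb known, so nothing is read from this. Prkcb alone held 59.8% ± 2.65 of the sum in PT against 2.95% ± 4.24 in AstroEGFR*. A larger share of Prkcb lowers the shares of the other members. The atypical class averaged 33.9 FPKM in AstroEGFR* and 24.7 in PT, a smaller change than that of its share. The calcium-independent class varied most within the astrocytes, from 7.85% in AstroEGFR*2 to 33.4% in AstroEGFR*3, and in PT it held 11.3% ± 3.45. The sum of the fibroblast and meningeal markers was also lower in PT than in the parental batch, at 43.7 (PT1) and 12.2 (PT4) FPKM against 350, 41.6 (PT2) against 512, and 577 (PT3) against 5551. The PT2 sum was nearly all Thy1, which was higher there, at 40.5 FPKM against 2.48 in AstroEGFR*2. The oligodendrocyte lineage markers were higher, at 1357 (PT1) and 1702 (PT4) against 223, 145.0 (PT2) against 130.4, and 131 (PT3) against 66.8. The part of either cell type in the composition was not tested.

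**Figure D1:**
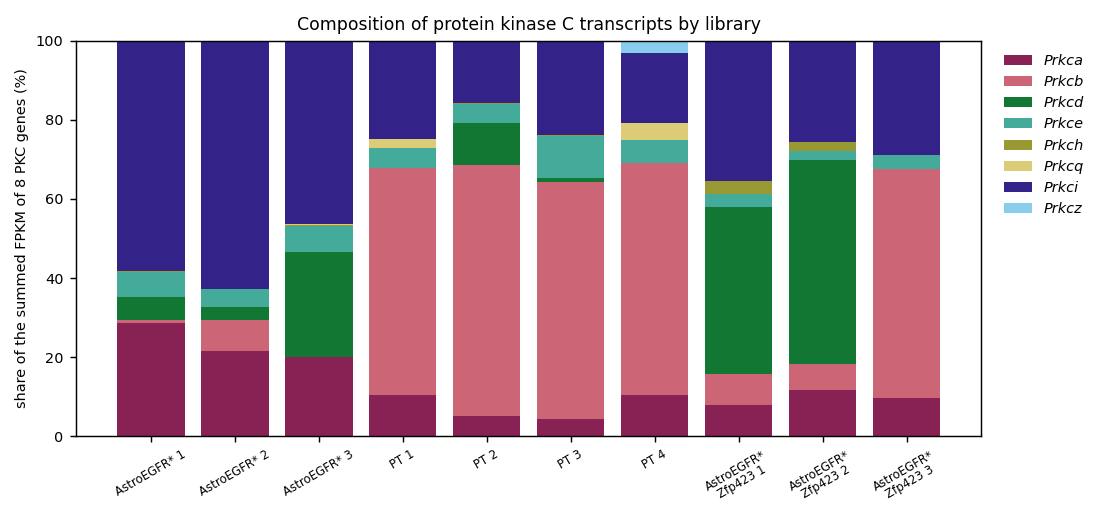
Share of each of the 8 protein kinase C genes in their summed FPKM (y axis, percent) in each of the 10 libraries (x axis). Prkcb holds 57.2% to 63.4% of the sum in the 4 PT libraries and 57.8% in AstroEGFR*3 Zfp423, and Prkcd holds 42.2% and 51.5% in AstroEGFR*1 Zfp423 and AstroEGFR*2 Zfp423.

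In AstroEGFR*, levels by FPKM, which is per transcript length, ran from Prkci through Prkca, Prkcd, Prkce, Prkcb, Prkch and Prkcz to Prkcq. Only Prkci and Prkca did not overlap as neighbours in that order, and every other pair of neighbours did. In PT the order was Prkcb, Prkci, Prkca, Prkce, Prkcd, Prkcq, Prkcz and Prkch. There the values of Prkcb, Prkci and Prkca were separate from each other, and neighbours from Prkca down overlapped.

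Among the conventional isoforms, Prkcb, a calcium-dependent kinase of neurons, B cells and myeloid cells, was low in astrocytes and high in PT. It was at 0.486, 4.64 and 0.0878 FPKM across AstroEGFR*1 to AstroEGFR*3. It was at 55.1, 93.0, 71.5 and 66.5 FPKM across PT1 to PT4. All 4 PT libraries lay above all 3 AstroEGFR* libraries, and the astrocyte values themselves spanned 52.8-fold. The mean on the log2(FPKM + 1) scale was 1.06 ± 1.26 (SD, n = 3) for the astrocytes, and for PT it was 6.16 ± 0.31 (SD, n = 4). The log2 fold change was 5.09 (SE 0.55, limma). Against the astrocytes of its own batch the log2 difference was 5.24 in PT1, 5.51 in PT4, 4.06 in PT2 and 6.06 in PT3, so each PT library was higher than its parental batch. Of the 12261 features tested, 1.24% were called at an adjusted p of 0.05, and Prkcb was the 1 member called among the 6 that passed the filter of a mean of 1 FPKM. Since the members were chosen with this contrast in view, nothing is read from that count. The call was lost without AstroEGFR*1, where the log2 fold change was 4.85 and only 7 features were called.

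Prkca, the most widely expressed conventional isoform, ran the other way. It was at 15.3, 12.8 and 14.3 FPKM in AstroEGFR*1 to AstroEGFR*3 and at 10.1, 7.47, 5.25 and 11.8 FPKM across PT1 to PT4. Every PT value was below every AstroEGFR* value, with a log2 fold change of -0.70 (SE 0.29). The difference from the parental batch ran from -1.30 in PT3 to -0.35 in PT4. The ratio between the isoforms therefore turned over, with Prkca above Prkcb in each AstroEGFR* library and below it in each PT library.

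**Figure D2:**
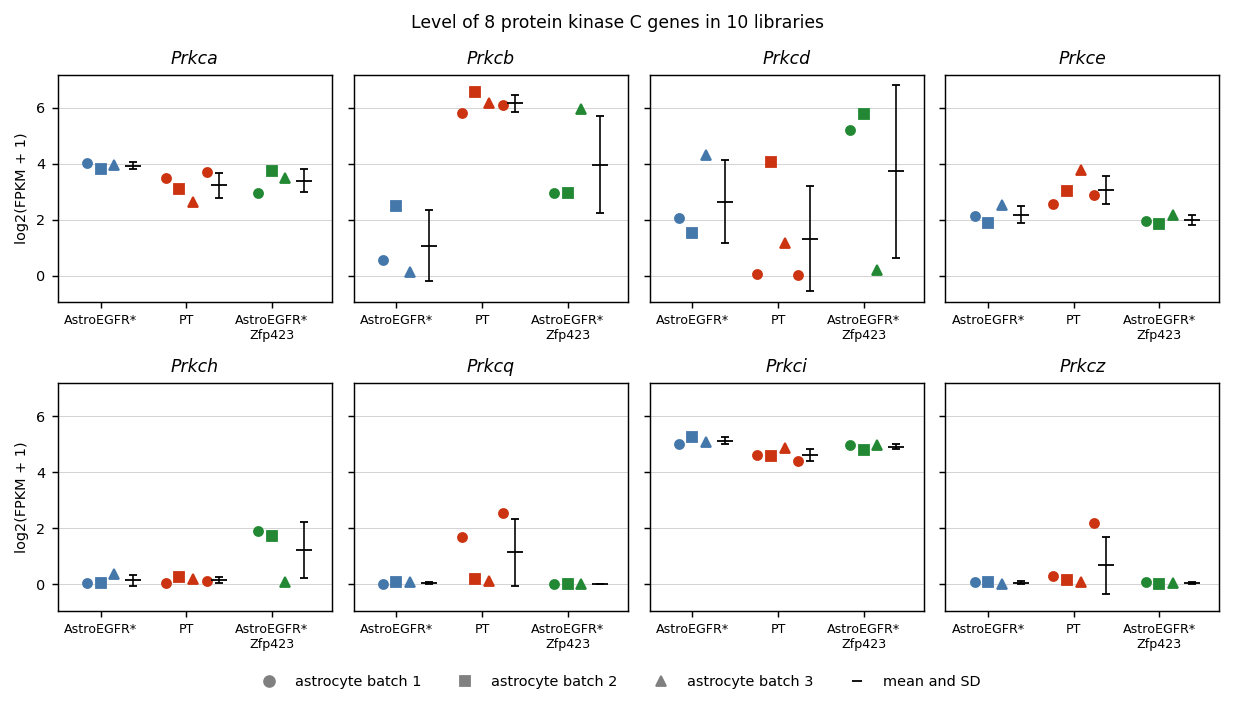
Level of each of the 8 protein kinase C genes on the log2(FPKM + 1) scale (y axis) in the AstroEGFR*, PT and AstroEGFR* Zfp423 libraries (x axis), with 1 point per library shaped by astrocyte batch and bars for the mean and SD. The PT points of Prkcb lie between 5.81 and 6.56, above all AstroEGFR* points, while those of Prkcd run from 0.02 to 4.05.

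Among the calcium-independent isoforms, Prkcd, a kinase linked to apoptosis and to myeloid and lymphoid signalling, differed more between libraries of 1 group than between the groups. It was at 3.16, 1.88 and 18.9 FPKM in AstroEGFR*1 to AstroEGFR*3. It was at 0.0468, 15.5, 1.22 and 0.0173 FPKM across PT1 to PT4. PT1 and PT4, which share a batch, were lowest, and PT2 fell inside the astrocyte range, so the groups overlapped. The log2 fold change was -1.31 (SE 1.10), and the within-batch difference was -1.99 in PT1, -2.03 in PT4, -3.16 in PT3 and 2.52 in PT2. The fold change was -0.47 without AstroEGFR*3, -2.22 without PT2 and -2.69 with a pseudocount of 0.1.

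Prkce, a calcium-independent isoform common in brain tissue, was at 3.41, 2.69 and 4.71 FPKM in AstroEGFR*1 to AstroEGFR*3. It was at 4.93, 7.20, 12.7 and 6.34 FPKM across PT1 to PT4. All PT values were above all AstroEGFR* values, although PT1 and AstroEGFR*3 were close. The log2 fold change was 0.88 (SE 0.35), with a difference of 0.43 to 1.26 from the parental batch.

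Prkcq was at 0.0139, 0.0561 and 0.0488 FPKM in AstroEGFR*1 to AstroEGFR*3 and at 2.24, 0.145, 0.0746 and 4.92 FPKM across PT1 to PT4. The level above 1 FPKM was confined, among these libraries, to PT1 and PT4, both from batch 1. The T cell genes Cd3e, Cd3d and Cd3g were listed at 0 in those 2 libraries, but so low a value does not by itself show absence in this matrix, since Gapdh, a gene every cell uses, was listed at 0.0206 and 0.0106 FPKM there. In the same 2 libraries the 9 markers of the oligodendrocyte lineage summed to 1357 and 1702 FPKM against 131 and 145 in PT3 and PT2, and the part of such cells in the Prkcq level was not tested. The gene passed the filter only through PT1 and PT4, so no fold change over the group is given. Prkch stayed at 0.0256 to 0.294 FPKM in AstroEGFR* and 0.0319 to 0.202 FPKM in PT, and it was below the filter in this comparison.

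Of the atypical isoforms, Prkci, the kinase subunit of the Par3 and Par6 polarity complex, was the steadiest member. It was at 31.3, 37.1 and 33.2 FPKM in AstroEGFR*1 to AstroEGFR*3 and at 23.6, 23.0, 28.4 and 20.0 FPKM across PT1 to PT4. Every PT value was below every AstroEGFR* value, and the log2 fold change was -0.50 (SE 0.21). Prkcz was at 0.0726 and 0.0491 FPKM in AstroEGFR*1 and AstroEGFR*2 and was listed at 0 in AstroEGFR*3. It was at 0.227, 0.115 and 0.0596 FPKM in PT1, PT2 and PT3 and at 3.59 in PT4. Only PT4 exceeded 1 FPKM among the 10 libraries, and the gene was below the filter. Over the 6 members tested, 5 had groups of libraries that did not overlap, against 14.8% of all features tested, and nothing is read from this count either, for the same reason. Of the 5, Prkcq passed the filter through PT1 and PT4 only, and its groups were separated by 0.0561 FPKM in AstroEGFR*2 and 0.0746 FPKM in the shallow PT3.

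The second comparison asked how forced Zfp423 expression altered the astrocytes, each culture being set against the parental culture of its batch. No member was called. Of 12366 features tested, 0% were called by limma with the batch as a block, 913 (7.38%) had an unadjusted p below 0.05, and the fit without the block called 2 (0.0162%). Among the 5 members that passed the filter, 0 had an unadjusted p below 0.05 in that fit, while under alternatives the limma unadjusted p of Prkcb was 0.0251 without the block, 0.0107 with all 10 libraries in 1 fit and 0.0141 without batch 2, and that of Prkcd was 0.000955 without batch 3. None of these passed the adjustment. With 3 batches, a two-sided exact permutation test of the signs of the within-batch differences cannot go below p = 0.25. The AstroEGFR* libraries are the same as in the comparison with PT, so the 2 sets of differences are not independent.

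Prkcb was at 6.73 and 6.78 FPKM in AstroEGFR*1 Zfp423 and AstroEGFR*2 Zfp423 and at 61.1 FPKM in AstroEGFR*3 Zfp423. All 3 values were above all 3 parental values, but the differences were unequal, at 2.38, 0.47 and 5.83 on the log2 scale in batches 1, 2 and 3. These differences rest on the labelled parents, and in batches 2 and 3 the deviations from the group means matched another AstroEGFR* library better. The microglia and macrophage markers were also higher in batches 1 and 2. They summed to 1000 FPKM against 20.5 in the parental culture in batch 1, and to 642 against 7.78 in batch 2. In batch 3, where Prkcb differed most, they were lower, at 1.40 FPKM against 40.7. With a log2 fold change of 2.89 (SE 1.12), Prkcb missed the threshold (limma, adjusted p = 0.628, exact permutation p = 0.25). It was 1.42 (SE 0.60) without batch 3, and 4.89 (SE 1.04, limma, adjusted p = 0.735) with AstroEGFR*1 Zfp423 and AstroEGFR*2 Zfp423 left out together, a fit without the block that called 0.0994% of features and no member. That fit sets 1 infected library against 3, and the lone library is assumed to vary like the AstroEGFR* libraries. The 61.1 FPKM lay inside the PT range. By Spearman's rho this library was closer to AstroEGFR*2 than to its labelled parent, as was AstroEGFR*1 Zfp423. Set against the 4.64 FPKM of AstroEGFR*2, the 61.1 FPKM and the 6.73 FPKM of AstroEGFR*1 Zfp423 were likewise higher.

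Prkcd differed from its parental level in opposite directions between batches. It was at 36.1 and 54.1 FPKM in AstroEGFR*1 Zfp423 and AstroEGFR*2 Zfp423, above every other library, and at 0.135 FPKM in AstroEGFR*3 Zfp423, below every AstroEGFR* library. The differences from the parental batch were 3.16, 4.26 and -4.13 on the log2 scale. A change of at least 1 log2 unit one way in batches 1 and 2 and the other way in batch 3 was seen in 386 features, 3.12% of those tested. The log2 fold change of 1.09 (SE 1.83, limma, adjusted p = 0.880) had no constant sign. It was -0.49 without batch 2, 3.71 (SE 0.40, limma, adjusted p = 0.121) without batch 3, and -2.45 (SE 1.20) in the same fit of the lone AstroEGFR*3 Zfp423 without the block. Set against AstroEGFR*2, the library closest to it, AstroEGFR*3 Zfp423 was at 0.135 FPKM to 1.88, a smaller gap than to the 18.9 FPKM of its labelled parent. AstroEGFR*1 Zfp423 was also closer to AstroEGFR*2 than to its labelled parent. It was at 36.1 FPKM to 1.88, a larger gap than to the 3.16 FPKM of AstroEGFR*1.

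Prkch followed the same libraries at lower levels. It was at 2.79 and 2.27 FPKM in AstroEGFR*1 Zfp423 and AstroEGFR*2 Zfp423 and at 0.0687 in AstroEGFR*3 Zfp423. Both higher values exceeded the other 8 libraries, where the highest was 0.294. The gene passed the filter only when batch 3 was left out, through the libraries in which it was high, so no test of it is given.

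The libraries in which Prkcd and Prkch were highest are those with microglia and macrophage markers. The defining markers Aif1, Cx3cr1 and P2ry12 were at 30.7, 105 and 9.95 FPKM in AstroEGFR*1 Zfp423 and at 8.04, 13.7 and 2.68 FPKM in AstroEGFR*2 Zfp423. In AstroEGFR*3 Zfp423, Aif1 was listed at 0, and Cx3cr1 and P2ry12 were at 0.00549 and 0.0271 FPKM. The sum of the 7 fibroblast and meningeal markers was also high in these libraries, at 4589 and 6548 FPKM in AstroEGFR*1 Zfp423 and AstroEGFR*2 Zfp423. It was 5551 in AstroEGFR*3, 350 and 512 in AstroEGFR*1 and AstroEGFR*2, 239.5 in AstroEGFR*3 Zfp423 and 12.2 to 577 in PT. The defining collagens Col1a1, Col1a2 and Col3a1 carried most of it in every library except PT2. The part of other cell types in the levels of Prkcd and Prkch was not tested, and in bulk RNA more cells of a type and more RNA per cell cannot be told apart. PT2, where Prkcd was at 15.5 FPKM, had fibroblast markers summing to 41.6 FPKM, of which Thy1 held 40.5. It had 1 microglia marker, Cd68 (36.5 FPKM), at 1 FPKM or more. Prkcb was likewise above the parental level in both marker-bearing libraries, at 6.73 FPKM against 0.486 and 6.78 against 4.64. It was also higher in AstroEGFR*3 Zfp423, at 61.1 FPKM against 0.0878, where the microglia and macrophage markers summed to 1.40 FPKM against 40.7. The part of such cells in the Prkcb level was not tested. In the PT libraries, Aif1 and Cx3cr1 were at 0.0329 FPKM or less, with P2ry12 at 0.782 FPKM in PT1, 2.10 in PT4 and 0.0970 and 0.163 in PT2 and PT3.

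**Figure D3:**
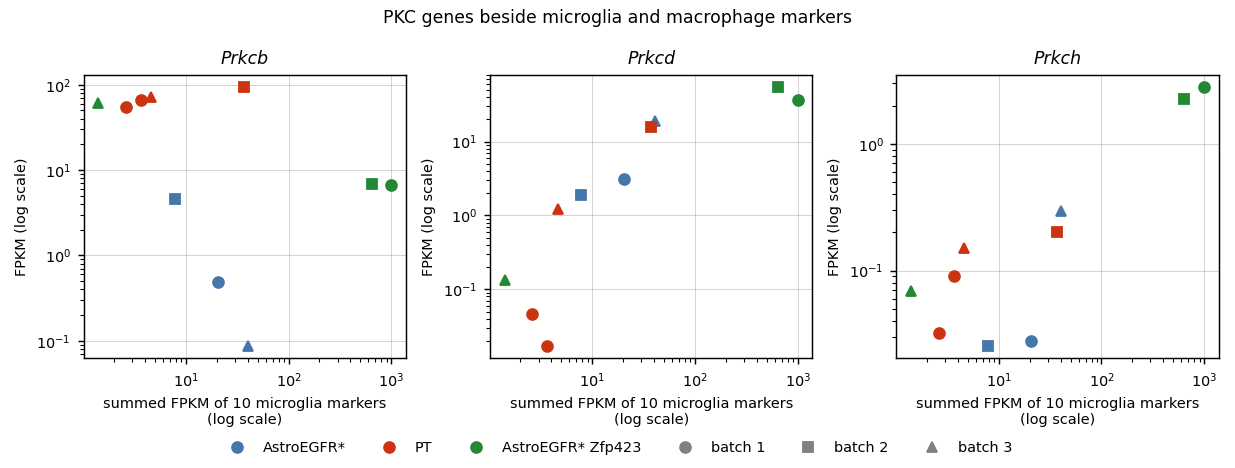
FPKM of Prkcb, Prkcd and Prkch (y axes, log scale) against the summed FPKM of 10 microglia and macrophage markers (x axes, log scale) in the 10 libraries, with colour for group and shape for astrocyte batch. AstroEGFR*1 Zfp423 and AstroEGFR*2 Zfp423, at sums of 1000 and 642, hold the highest Prkcd and Prkch, whereas Prkcb is highest in the 4 PT libraries and AstroEGFR*3 Zfp423, at sums of 1.40 to 37.0.

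The remaining members had smaller mean differences between the infected and the parental astrocytes than Prkcb and Prkcd. Prkca was at 6.70, 12.4 and 10.3 FPKM in AstroEGFR*1 Zfp423 to AstroEGFR*3 Zfp423, each below all 3 parental values, with a log2 fold change of -0.52 (SE 0.30, limma, adjusted p = 0.674). Its differences from the parental culture were unequal, at -1.09, -0.05 and -0.44 in batches 1, 2 and 3. Prkci was at 30.3, 26.8 and 30.5 FPKM, with a log2 fold change of -0.21 (SE 0.21, limma, adjusted p = 0.801), and again each value was below the parental range. Prkce was at 2.85, 2.57 and 3.51 FPKM, overlapping the parental values. Prkcq was at 0 to 0.0117 FPKM and Prkcz at 0.0143 to 0.0470 FPKM. Over the 5 members tested, 3 had groups that did not overlap, against 11.5% of all features tested.

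**Figure D4:**
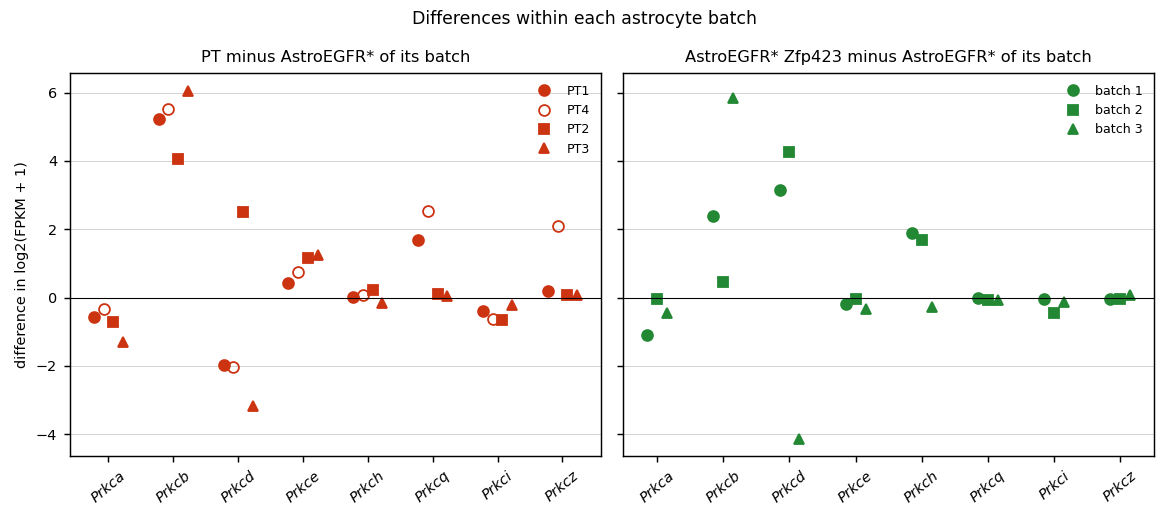
Difference in log2(FPKM + 1) from the AstroEGFR* library of the same batch (y axis) for each protein kinase C gene (x axis), for PT libraries in the left panel and AstroEGFR* Zfp423 libraries in the right panel. Prkcb is above 0 in all 7 differences, from 0.47 to 6.06, while Prkcd is below 0 in PT1, PT3, PT4 and AstroEGFR*3 Zfp423 and above 0 in the other 3.

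The other genes of PKC signalling were followed through 78 genes found by symbol, upstream activators, lipid kinases, scaffolds, partners and substrates. In PT against AstroEGFR*, 63 passed the filter and 0 were called by limma, with 10 at an unadjusted p below 0.05 against 13.6% of all features tested. Their median log2 fold change was -0.05, and that of all features was 0.03. With the astrocyte batch as a block, 2 of the 63 were called, both lower in PT, against 3.87% of all features.

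Upstream, the Gq-class subunits that activate phospholipase C differed little, with log2 fold changes of -0.45 (SE 0.33) for Gnaq and 0.42 (SE 0.32) for Gna11. Of 12 phospholipase C genes tested, 11 had a negative log2 fold change, as did 5872 of all 12261 features, and only 1 of the 12 had an unadjusted p below 0.05. The largest differences were those of the catalytically inactive relatives Plcl2 (1.36, SE 0.67) and Plcl1 (-1.24, SE 0.45). Plcl1 was at 15.6, 7.96 and 3.94 FPKM in AstroEGFR*1 to AstroEGFR*3 and at 4.13, 2.26, 1.71 and 3.63 in PT1 to PT4, and it was 1 of the 2 called with the block (-1.40, SE 0.24, limma, adjusted p = 0.0466). Among the diacylglycerol kinases, which remove the activating lipid, Dgkb had 1.41 (SE 0.53) and Dgkg had -1.27 (SE 0.46).

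Among proteins that handle the kinase itself, Phlpp1, a phosphatase that destabilizes PKC, had a log2 fold change of -0.73 (SE 0.29). Rictor, a subunit of the mTOR complex that primes PKC, had -0.56 (SE 0.37). For the scaffolds, Sqstm1, which binds atypical PKC, had 0.85 (SE 0.80) and Akap12 had -0.78 (SE 0.57). Wwc1 (KIBRA), a partner and inhibitor of atypical PKC, was lower in every PT library. It was at 135, 68.4 and 99.8 FPKM in AstroEGFR*1 to AstroEGFR*3 and at 37.4, 11.8, 31.2 and 32.2 FPKM across PT1 to PT4, with no overlap. Its log2 fold change was -1.87 (SE 0.44, limma, adjusted p = 0.106). It was called only with the block (limma, adjusted p = 0.0152). The polarity subunit Pard6b had -0.90 (SE 0.44). Pkn3, of the related protein kinase N family, had -0.68 (SE 0.41).

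Of the substrates, Gap43, a growth cone protein phosphorylated by PKC, was at 2.29, 5.57 and 18.1 FPKM in AstroEGFR*1 to AstroEGFR*3 and at 31.1, 38.6, 12.3 and 112 FPKM across PT1 to PT4. PT3 fell inside the astrocyte range, and at a log2 fold change of 2.32 (SE 0.80) the gene missed the threshold (limma, adjusted p = 0.264). The adducin Add2 had 0.73 (SE 0.59). Chn2, a Rac GTPase-activating protein that also binds diacylglycerol, was at 1.15, 0.333 and 0.659 FPKM in AstroEGFR*1 to AstroEGFR*3 and at 3.49, 43.5, 29.3 and 5.95 in PT1 to PT4. All PT values were above the astrocytes, yet at a log2 fold change of 3.09 (SE 0.81) the gene missed the threshold too (limma, adjusted p = 0.139). Its relative Chn1 had 1.29 (SE 0.67).

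**Figure D5:**
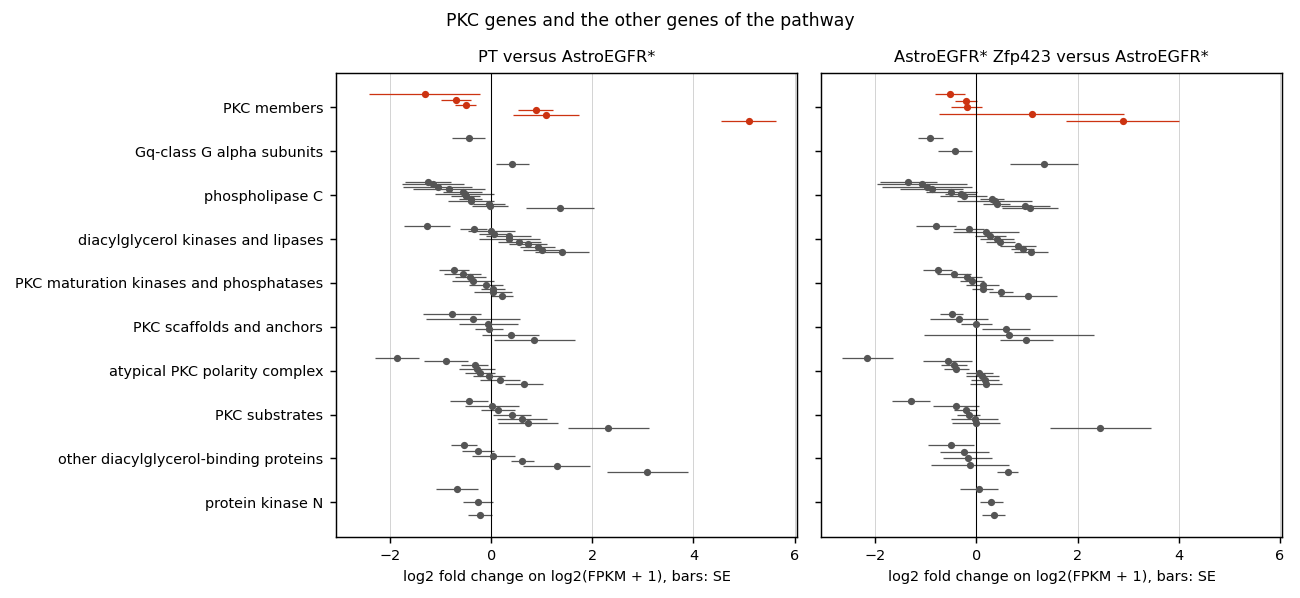
Log2 fold change on the log2(FPKM + 1) scale (x axes, bars show the SE) of each gene tested, by role (y axis), for PT against AstroEGFR* on the left and AstroEGFR* Zfp423 against AstroEGFR* on the right. Prkcb lies at 5.09 on the left, beyond every gene of the 9 groups below it, of which Chn2 at 3.09 is next.

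In AstroEGFR* Zfp423 against AstroEGFR*, 61 genes of the list were tested, 0 were called by limma, and 6 had an unadjusted p below 0.05 against 7.38% of all features. The median log2 fold change was -0.01 and that of all features was 0.02. Plek, a PKC substrate of platelets and leukocytes, was at 21.0 and 22.6 FPKM in AstroEGFR*1 Zfp423 and AstroEGFR*2 Zfp423 and at 0.832 in AstroEGFR*3 Zfp423, against 0.289 to 1.24 in AstroEGFR*. Gna15, a blood cell subunit of the Gq class, was at 4.84 and 2.09 FPKM in the same 2 libraries and listed at 0 in AstroEGFR*3 Zfp423, with 0 to 0.0627 in AstroEGFR*. Both genes were therefore highest in the libraries with microglia and macrophage markers, and the part of such cells was not tested.

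Among the other genes of the list, Wwc1 was at 51.3, 5.18 and 32.2 FPKM in AstroEGFR*1 Zfp423 to AstroEGFR*3 Zfp423, below all 3 parental values, with a log2 fold change of -2.16 (SE 0.50, limma, adjusted p = 0.628). Gap43 was at 1.03, 0.711 and 7.08 FPKM, each below its own parental culture, with a log2 fold change of -1.29 (SE 0.38). The lipase Daglb, which consumes diacylglycerol, was at 12.2, 7.99 and 6.25 FPKM, above all parental values, with 1.08 (SE 0.34). Other differences were those of Plce1 (-1.35, SE 0.57), Plch1 (-1.08, SE 0.90), Rictor (1.02, SE 0.57), Gnb2l1 (Rack1, a PKC anchor; 0.98, SE 0.53) and Dgkd (0.92, SE 0.23). Smaller ones were those of Gnaq (-0.91, SE 0.25), Phlpp1 (-0.77, SE 0.29), Sdpr (0.64, SE 1.68), Prkd3 (0.62, SE 0.21), Pard6b (-0.57, SE 0.49), Prkd2 (-0.51, SE 0.45) and Pkn2 (0.30, SE 0.23). None of these passed the test after adjustment (limma).

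Outside the pathway, the features whose centred profile over the 10 libraries was most like that of Prkcb were Ptgds, Chrm3 and Nrcam, with root-mean-square differences of 0.93, 0.99 and 1.20 log2 units against an SD of 2.45 for Prkcb itself. Ptgds, a prostaglandin D2 synthase, was at 0 to 1.16 FPKM in AstroEGFR*, 14.8 to 40.2 in PT and 0 to 10.8 in AstroEGFR* Zfp423. Chrm3, a muscarinic receptor that couples to Gq, was at 0 to 1.64, 14.8 to 53.8 and 0 to 9.61 FPKM in the 3 groups. Nrcam, a neuronal cell adhesion molecule, was at 0.451 to 2.16, 20.5 to 59.8 and 0.194 to 36.4 FPKM. Like Prkcb, all 3 were low in astrocytes and high in every PT library, which follows from their choice by likeness to its profile.

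The features most like Prkcd were Capn1, Fam129a and Gpx7, at 0.58, 0.65 and 0.71 log2 units against an SD of 2.22. Capn1, a calcium-dependent protease, was at 4.05 to 22.1 FPKM in AstroEGFR*, 0.465 to 9.93 in PT and 0.901 to 45.3 in AstroEGFR* Zfp423. Fam129a ranged from 0.0177 FPKM in PT to 140 FPKM in AstroEGFR* Zfp423, and Gpx7, a glutathione peroxidase family member, from 0.0210 to 55.0 FPKM. These are likenesses over 10 libraries of 3 groups, chosen as the nearest of 12476 features.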

How the data were processed

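RNA-seq was deposited for 10 mouse cultures. The authors aligned reads to mm9 with TopHat 1.3 and deposited gene-level FPKM values from Cuffnorm, normalized by library and gene length; read counts and depth are not given, so relative depth was estimated from the steps of low values, and no counting intervals were computed. The labels name a TruSeq RNA kit and the paper a stranded ribosomal depletion kit. Replicates are separate cultures, and PT1 and PT4 share an astrocyte batch.

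Features averaging 1 FPKM or more in the libraries compared were tested on the log2(FPKM + 1) scale with limma 3.58.1 (R 4.3.3, empirical Bayes with trend, Benjamini-Hochberg threshold 0.05), without pairing for PT and with the astrocyte batch as a block for AstroEGFR* Zfp423. This scale understates changes of low genes. Fits were checked on simulated data, with 200 features changed by 3 log2 units. For PT, 149 features were called and 142 of these were true. For AstroEGFR* Zfp423, 93 were called and 88 were true, so the lack of calls there does not show a lack of change. That simulation gave the libraries of a batch a shared term, unlike the values of batches 2 and 3. Deviations from the group means correlated between each PT library and its parental batch (r = 0.35 to 0.50), and in AstroEGFR* Zfp423 for batch 1 (r = 0.24) but not for batches 2 and 3 (r = -0.11 and -0.26). PT batches follow the study.

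The members and all gene lists were chosen with earlier results of these data known. Named genes were the members; per role and comparison, all called genes and the 2 largest other differences; and, for members with a profile SD of at least 1, the 3 nearest profiles, apart from genes that are not reported here. Markers appear as sums and with their defining genes, and single markers such as Cd68 were named after their values were seen. Alternatives were a pseudocount of 0.1, no filter, median-ratio scaling, removal of 802 histone and small non-coding RNA features, no trend, the block added or dropped, PT1 and PT4 averaged, all 10 libraries in 1 fit and each library left out. Promoters came from RefSeq GRCm38.p6, a build other than mm9.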

Additional observations from a re-analysis of the deposited data

Results flagged for a closer look

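Prkcz was at 3.59 FPKM in PT4 against 0.0596 to 0.227 FPKM in the other 3 PT libraries. On the log2(FPKM + 1) scale, the gap to the next library was 0.900 of the range of the group, above the 95% critical value of Dixon's test for 4 samples. Chance alone exceeds it in about 1 of 20 groups, and all 8 members were put through this test in PT.

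Prkcd differed in direction between batches upon Zfp423 expression. Its log2 difference from the parental culture was -4.13 in batch 3 against 3.16 and 4.26 in batches 1 and 2, with 1 library per batch and condition, and this difference between batches was not tested. By Spearman's rho, AstroEGFR*2 was the closest AstroEGFR* library to each AstroEGFR* Zfp423 library. Its Prkcd was at 1.88 FPKM, beside 36.1, 54.1 and 0.135 FPKM in AstroEGFR*1 Zfp423 to AstroEGFR*3 Zfp423.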

How the results depend on the processing

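In PT against AstroEGFR*, 152 features were called, and 475 with the astrocyte batch as a replicate block, 82 with all 10 libraries in 1 fit, 59 with PT1 and PT4 averaged, and 7 to 123 with 1 library left out, the fewest without AstroEGFR*1. The members called were 0 to 1 with 1 library left out, Prkcb losing its call only there (log2 fold change 4.85, limma adjusted p = 0.0630), and since Prkcb was chosen with these values known, nothing is read from its calls. The block raised the pathway genes called from 0 to 2 and changed no call of a member. In AstroEGFR* Zfp423 against AstroEGFR*, 0 features were called, 2 without the replicate block, 0 to 51 with 1 batch left out (51 without batch 2), and 12 with AstroEGFR*1 Zfp423 and AstroEGFR*2 Zfp423 left out, an alternative chosen after seeing the data. The log2 fold change of Prkcd turned negative in the last setting (-2.45) and without batch 2 (-0.49), and ran up to 3.71 without batch 3. The causes of these shifts were not tested. Of 142 values of single members under alternatives, 139 kept their direction and side of the threshold. In the shallow AstroEGFR*3 and PT3, FPKM below 1 are uncertain.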
